A study of Homo sapiens with 6 samples.

Results

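The circadian clock genes described here are 10 genes chosen by symbol: PER1, PER2, PER3, CRY1, CRY2, NR1D1, NR1D2, DBP, BHLHE40 and CLOCK. All 10 were found among the 36884 genes of the deposited table, each in a single row, and all 10 were among the 13431 genes tested. The cells were RPE1, a human line of retinal pigment epithelium origin that is not transformed, in which LATS1 and LATS2, kinases of the Hippo pathway, had been inactivated with CRISPR-Cas9. That edit was shared by both groups, so no library comes from cells with intact LATS1 and LATS2. One group was transfected, with a lipid reagent, with siRNA that targets MK5, the kinase whose gene is MAPKAPK5, and the other with control siRNA. RNA was taken at 48 h from 3 libraries per group, which the submitters call biological replicates. The labels do not say how many clones or siRNA sequences were used, nor whether the cells were synchronized. With a single collection time, a change in the mean level of a rhythmic transcript and a shift of its phase cannot be told apart.

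The mammalian clock is a feedback loop of transcription. CLOCK and its partner BMAL1 (ARNTL in the table) bind E-box sequences and activate the PER, CRY, NR1D and DBP genes. PER and CRY proteins then enter the nucleus and repress CLOCK and BMAL1. In a linked loop, the nuclear receptors NR1D1 and NR1D2 repress ARNTL while ROR receptors activate it. DBP, TEF and HLF activate genes that hold D-box sequences, which NFIL3 represses, and BHLHE40 and BHLHE41 compete for E-boxes. Most cultured human and rodent cells, fibroblasts and epithelial cells among them, run such a clock, although cells of a dish drift apart in phase unless synchronized.

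The sequences before the transcription starts of 4 of the genes are shown as examples, with matches to the kinds of element through which the loop is known to act. They are RefSeq windows of build GRCh38.p14, from 250 bases before the annotated start up to it, 5′ to 3′ on the strand of the gene. Capitals mark matches to the E-box CACGTG, its variant CACGTT, the D-box TTATGTAA or TTACGTAA, the CRE TGACGTCA and the core AGGTCA of the ROR element, each searched on both strands. PER1 lies at chr17:8152405-8152654 (minus strand), NR1D1 at chr17:40100590-40100839 (minus strand), BHLHE40 at chr3:4979187-4979436 (plus strand) and PER3, at the upstream of its 2 starts, at chr1:7784041-7784290 (plus strand).
PER1: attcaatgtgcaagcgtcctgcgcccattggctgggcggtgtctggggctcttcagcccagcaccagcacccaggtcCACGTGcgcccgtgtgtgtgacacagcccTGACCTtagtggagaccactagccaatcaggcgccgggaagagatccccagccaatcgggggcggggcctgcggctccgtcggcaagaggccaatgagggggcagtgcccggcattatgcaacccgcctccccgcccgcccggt
NR1D1: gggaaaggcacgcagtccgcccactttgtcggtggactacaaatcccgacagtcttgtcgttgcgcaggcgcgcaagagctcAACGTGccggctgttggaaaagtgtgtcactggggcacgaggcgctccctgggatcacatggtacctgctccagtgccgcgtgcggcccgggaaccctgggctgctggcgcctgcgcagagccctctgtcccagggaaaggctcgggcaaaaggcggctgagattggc
BHLHE40: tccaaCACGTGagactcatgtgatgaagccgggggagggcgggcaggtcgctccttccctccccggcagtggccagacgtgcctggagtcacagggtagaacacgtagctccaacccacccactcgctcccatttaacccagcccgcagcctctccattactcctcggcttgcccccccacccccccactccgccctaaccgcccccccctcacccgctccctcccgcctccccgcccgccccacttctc
PER3: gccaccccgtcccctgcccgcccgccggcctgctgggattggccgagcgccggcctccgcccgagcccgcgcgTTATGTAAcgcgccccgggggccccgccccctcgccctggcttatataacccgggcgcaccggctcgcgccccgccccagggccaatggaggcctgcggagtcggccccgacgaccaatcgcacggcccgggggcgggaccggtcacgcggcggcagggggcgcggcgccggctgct

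In PER1 the E-box began 173 bases before the start, and an inverted AGGTCA began 144 bases before it. The BHLHE40 window held an E-box at 245 bases, and NR1D1 held the E-box variant on the opposite strand at 168 bases. PER3 held the D-box TTATGTAA at 177 bases. RefSeq gave 14 windows for the 10 genes, since PER3, CRY2, NR1D2 and CLOCK have 2 starts each. An E-box was found in 3 of the 10 genes (PER1, NR1D2 and BHLHE40), and 6.34% of all 35116 promoter windows of that length hold one. The variant CACGTT was found in 5 (PER2, CRY1, CRY2, NR1D1 and CLOCK), against 4.55% of all windows. The D-box TTATGTAA stood before PER3 and NR1D2 and in 0.834% of all windows, while TTACGTAA stood before none of the members and in 0.105% of all. The core AGGTCA was found in PER1 and CRY2 (12.1% of all windows) and the CRE in none of the 10 (1.65% of all windows). A gene with 2 windows has more chance of a match than a single window, and a match describes letters, not binding.

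**Figure D1:**
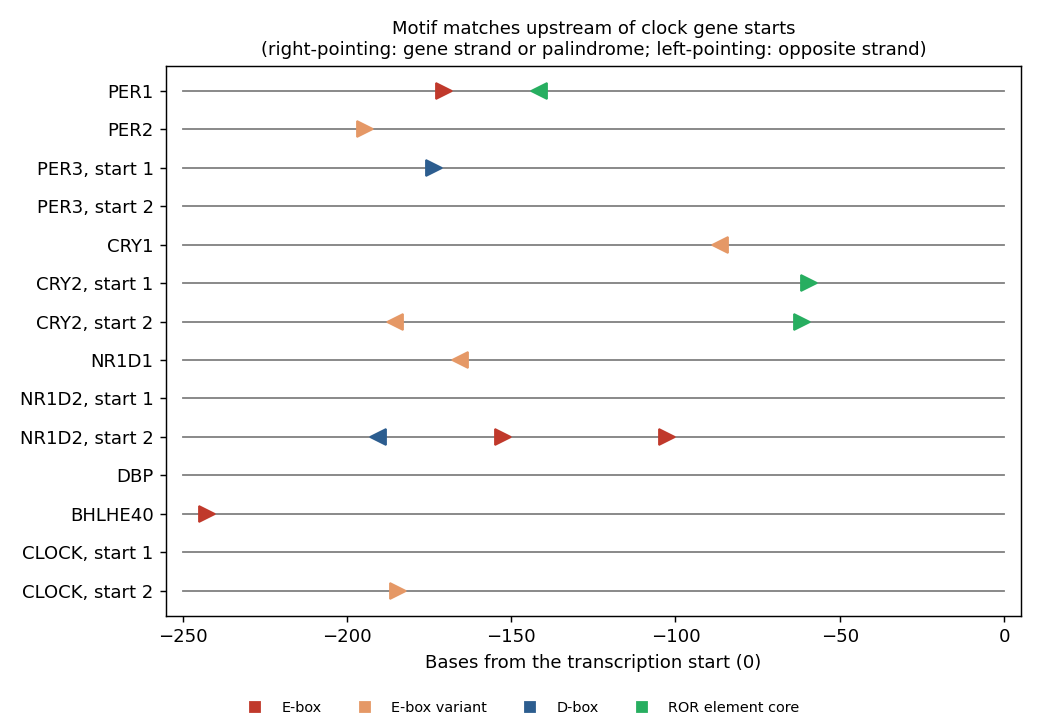
Motif matches in the 250 bases before each annotated start of the 10 clock genes (14 windows, horizontal axis in bases from the start). Marker colour gives the motif and its direction the strand. NR1D2 holds 2 E-boxes and a D-box before its second start, and DBP holds no match.

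As a check of the knockdown, MAPKAPK5 had 17.4, 14.1 and 16.2 CPM in the MK5 siRNA libraries, against 35.6, 29.05 and 31.3 CPM in the control libraries. CPM here are counts relative to library size, with libraries scaled by TMM. The log2 fold change of MAPKAPK5 was −1.01 ± 0.14, MK5 siRNA over control siRNA (SE, n = 3 per group; edgeR adjusted p = 0.00169). Library totals lay between 27188074 and 28236773 counts. Replicate 1 stood apart in both groups, and further in the controls. Chi-square per gene between replicate 1 and the others was 31.7 and 38.4 in MK5 siRNA libraries, against 4.65 between replicates 2 and 3. In control libraries it was 184 and 190, against 7.09 between replicates 2 and 3. Each clock gene is therefore also given from replicates 2 and 3 alone (n = 2 per group), a set in which 75.8% of all tested genes passed. Some genes are also given without control replicate 1, a setting in which 4455 of 13774 tested genes rose and 4419 fell. With all libraries, 3020 of 13431 rose and 3186 fell. Of 8 markers of retinal pigment epithelium, RPE65, RLBP1 and TYR had at most 3 counts in every library, while OTX2 and MITF were measured at 34.8 ± 0.919 and 25.3 ± 3.45 CPM in MK5 siRNA libraries and 32.4 ± 2.61 and 54.1 ± 4.08 CPM in control libraries. MITF fell (−1.09 ± 0.14, edgeR adjusted p = 0.00114), as did PMEL (−1.89 ± 0.27, edgeR adjusted p = 0.00189), which had only 13 to 19 counts per MK5 siRNA library. OTX2, BEST1 and SERPINF1 were tested and did not pass. The 8 summed to 59.2 to 66.5 CPM in MK5 siRNA libraries and 84.8 to 96.9 CPM in control libraries. Of 4 epithelial markers, EPCAM had no count, CDH1 was too low to test, and the keratins KRT8 (−0.83 ± 0.18, edgeR adjusted p = 0.0104) and KRT18 (−0.74 ± 0.13, edgeR adjusted p = 0.00363) fell. These 4 summed to 387 to 573 CPM in MK5 siRNA libraries and 752 to 827 CPM in control libraries. None of 3 mesenchymal markers passed. Among 4 genes of other cell types, PECAM1 had no count PTPRC averaged 0.162 CPM in MK5 siRNA libraries and 0.160 CPM in control libraries, and RBFOX3 averaged 0.162 CPM in MK5 siRNA libraries and 0.0986 CPM in control libraries, but COL1A1, a collagen of fibroblasts that cultured epithelial cells can also make, rose by 1.83 ± 0.35 on the log2 scale (edgeR adjusted p = 0.00605). The 4 summed to 132 to 294 CPM in MK5 siRNA libraries and 39.8 to 68.2 CPM in control libraries. The part of these marker changes in the clock gene results was not tested.

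MK5 siRNA moved the clock genes in both directions. NR1D1, BHLHE40 and CRY2 rose, PER3 fell, and PER1, PER2, CRY1, NR1D2, DBP and CLOCK did not pass the threshold, an adjusted p below 0.05 in edgeR's quasi-likelihood test over all tested genes. Of the 10, 4 thus passed, where 46.2% of all tested genes did. By direction, 3 rose and 1 fell, where 22.5% of all tested genes rose and 23.7% fell. The libraries of the groups did not overlap in those same 4 of 10, against 60.4% of all tested genes. The share of clock genes called is near the background, so it does not set them apart, and the members are described singly below. Their median log2 fold change was 0.045, against 0.00031 over all tested genes. With the replicate number as a block, 4 rose and 2 fell, where 47.3% of all tested genes passed. The labels name no shared day, so this block and the replicate pairs below rest on a pairing read from the data. That pairing mostly sets replicate 1 apart.

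**Figure D2:**
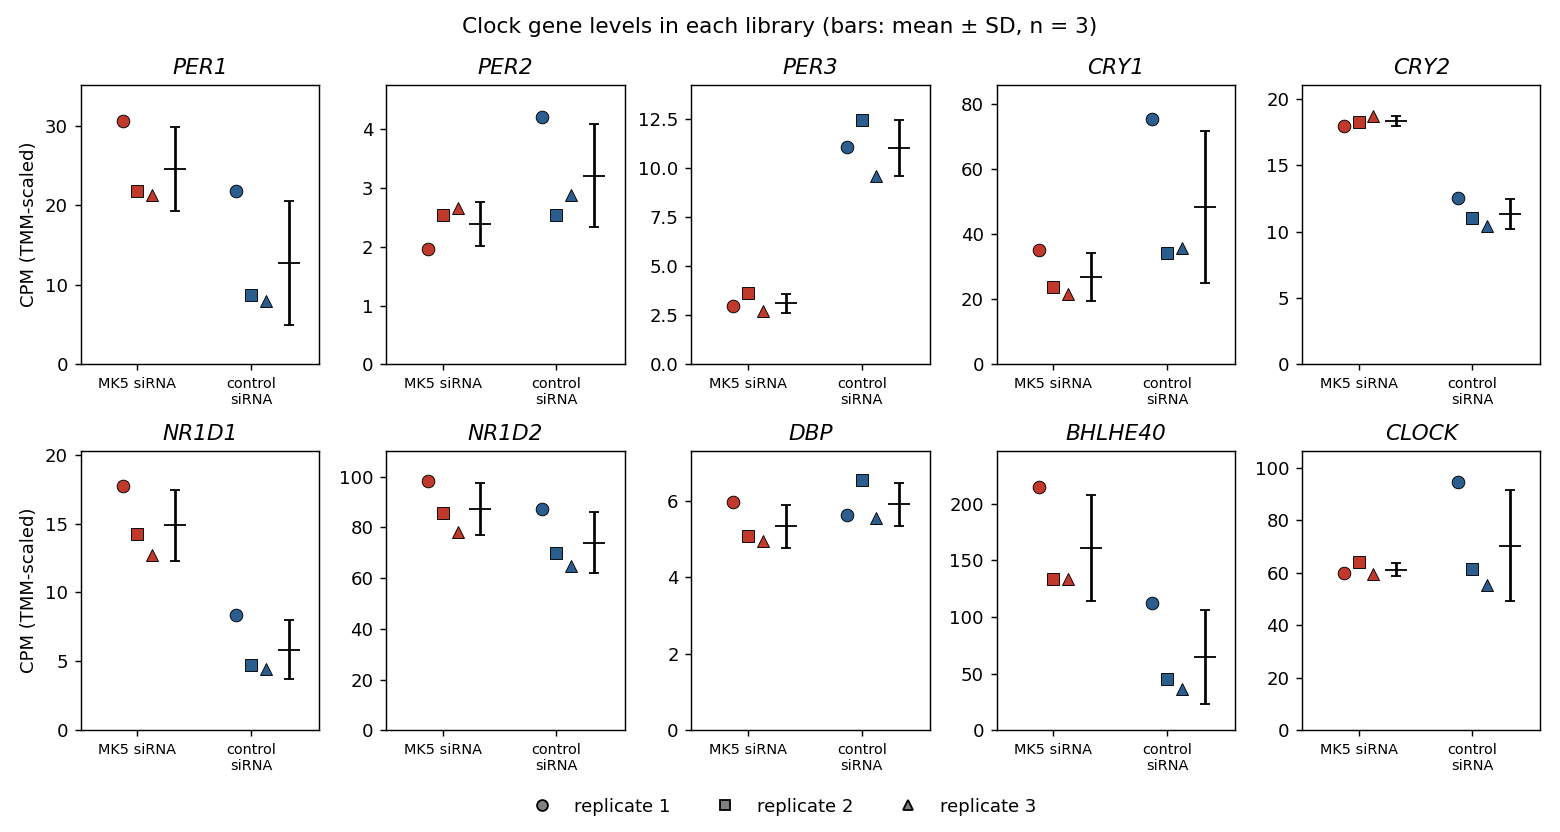
CPM of the 10 clock genes in each of the 6 libraries (vertical axes from 0), MK5 siRNA left and control siRNA right, with the mean and SD of 3 libraries. PER3, CRY2, NR1D1 and BHLHE40 have groups that do not overlap, and control replicate 1 lies above control replicates 2 and 3 in PER1, PER2, CRY1, CRY2, NR1D1, NR1D2, BHLHE40 and CLOCK.

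CLOCK encodes the DNA-binding activator that pairs with BMAL1. It had 59.9, 64.0 and 59.6 CPM in MK5 siRNA replicates 1, 2 and 3, against 94.6, 61.3 and 55.3 CPM in control replicates 1, 2 and 3. Control replicate 1 was the highest library by far, and the other 5 lay close together. The log2 fold change was −0.20 ± 0.20 (edgeR adjusted p = 0.447). It was 0.075 without control replicate 1 and 0.088 ± 0.072 in replicates 2 and 3, so its sign rested on that library.

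The 3 PER genes encode the period proteins, the partners of the CRY proteins. Of the 3, only PER3 passed. PER1, the member that also responds quickly to cAMP and glucocorticoid signals, had 30.7, 21.8 and 21.3 CPM in MK5 siRNA replicates 1, 2 and 3, against 21.8, 8.66 and 7.90 CPM in control replicates 1, 2 and 3. In both groups replicate 1 was the highest, and control replicate 1 reached the level of MK5 siRNA replicates 2 and 3, so the groups overlapped. Its log2 fold change was 0.95 ± 0.40 and did not pass (edgeR adjusted p = 0.0951). PER1 was higher in all 3 replicate pairs, by 0.49, 1.28 and 1.38 on the scale of log2(CPM + 0.5). It passed with the replicate block (1.08 ± 0.23, edgeR adjusted p = 0.0208), without control replicate 1 (1.57 ± 0.19, edgeR adjusted p = 0.000214) and in replicates 2 and 3 alone (1.38 ± 0.0998, edgeR adjusted p = 1.78e-10).

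PER2 had 1.97, 2.54 and 2.66 CPM in MK5 siRNA libraries and 4.21, 2.54 and 2.89 CPM in control libraries, replicates 1 to 3. The groups overlapped, and the gap between their means came mostly from replicate 1. The log2 fold change was −0.43 ± 0.27 (edgeR adjusted p = 0.230), −0.18 ± 0.21 without control replicate 1 and −0.059 ± 0.18 in replicates 2 and 3. These values rest on 54 to 79 counts per MK5 siRNA library and 69 to 110 per control library.

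PER3, a period protein that is dispensable for rhythms in mice, fell. It had 2.96, 3.65 and 2.73 CPM in MK5 siRNA replicates 1, 2 and 3, against 11.1, 12.4 and 9.58 CPM in control replicates. Every MK5 siRNA library was below every control library, and replicate 1 was in the middle of its group in both. The mean was 3.11 ± 0.482 CPM in MK5 siRNA libraries and 11.03 ± 1.42 CPM in control libraries (SD, n = 3 each), 3.54-fold lower after MK5 siRNA. Its log2 fold change of −1.82 ± 0.20 (edgeR adjusted p = 0.000742) was the largest of the 10 in size, and 6.90% of all tested genes changed by more. The value was −1.78 ± 0.16 in replicates 2 and 3. The other tested genes whose 6 values, centred on log2(CPM + 0.5), lay closest to those of PER3 were RBMX2 (Euclidean distance 0.259), STARD13 (0.274) and PKD1L2 (0.315). In GENCODE release 29 the exons of PER3 share 868 bases with UTS2 on the opposite strand, which had no counts in any library. They also share 482 bases (5.95% of the exon bases of PER3) with Z98884.1 on the opposite strand. That gene is absent from the deposited table, so its level is not known.

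The cryptochromes CRY1 and CRY2 are the partners of the PER proteins and repress CLOCK and BMAL1 directly. CRY1 had 35.1, 23.6 and 21.6 CPM in MK5 siRNA replicates 1, 2 and 3, against 75.2, 34.1 and 35.7 CPM in control replicates 1, 2 and 3. Replicate 1 was the highest in both groups, and MK5 siRNA replicate 1 lay between the control libraries, which is the whole overlap. The log2 fold change was −0.85 ± 0.35 and did not pass (edgeR adjusted p = 0.0844). CRY1 was lower in each pair, with differences of −1.09, −0.52 and −0.71 on log2(CPM + 0.5). It passed with the replicate block (−0.78 ± 0.15, edgeR adjusted p = 0.0153), in replicates 2 and 3 alone (−0.62 ± 0.081, edgeR adjusted p = 1.02e-06) and in DESeq2 over all libraries (−0.87, DESeq2 adjusted p = 0.0408). Without control replicate 1 the value was −0.38 ± 0.19 and did not pass (edgeR adjusted p = 0.119).

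CRY2 went the other way. It had 18.0, 18.3 and 18.7 CPM in MK5 siRNA replicates, against 12.6, 11.1 and 10.4 CPM in control replicates. The MK5 siRNA libraries were almost alike and all lay above the controls. The rise was 0.69 ± 0.13 on the log2 scale, or 1.62-fold (edgeR adjusted p = 0.00576), and 0.79 ± 0.097 in replicates 2 and 3.

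BHLHE40 encodes DEC1, a basic helix-loop-helix repressor that competes with CLOCK and BMAL1 for E-boxes and is also induced by hypoxia and growth factors. It had 215, 134 and 134 CPM in MK5 siRNA replicates 1, 2 and 3, against 112, 45.2 and 36.0 CPM in control replicates 1, 2 and 3. Replicate 1 was the highest of each group, and the groups did not overlap. The log2 fold change was 1.32 ± 0.44 (edgeR adjusted p = 0.0460), with 0.93, 1.56 and 1.88 in pairs 1, 2 and 3 on log2(CPM + 0.5). This call was close to the threshold. Leaving out control replicate 1 raised the value to 1.99 (edgeR adjusted p = 0.000196), and leaving out any of the other 5 libraries gave 1.00 to 1.44 with an edgeR adjusted p from 0.0776 to 0.151. It also did not pass with RLE size factors (1.30, edgeR adjusted p = 0.0503). The replicate block gave 1.47 ± 0.21 (edgeR adjusted p = 0.00861), and replicates 2 and 3 alone gave 1.73 ± 0.082 (edgeR adjusted p = 3.38e-13).

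NR1D1 and NR1D2 encode REV-ERB alpha and beta, heme-binding nuclear receptors that repress ARNTL and NFIL3. NR1D1 had 17.7, 14.3 and 12.7 CPM in MK5 siRNA replicates, against 8.35, 4.76 and 4.46 CPM in control replicates. Replicate 1 was again the highest of each group, and all MK5 siRNA libraries lay above all controls. It rose 2.54-fold, by 1.35 ± 0.28 on the log2 scale (edgeR adjusted p = 0.00810), and by 1.55 ± 0.12 in replicates 2 and 3. The 3′ end of NR1D1 overlaps THRA on the opposite strand, with 263 shared exon bases in GENCODE release 29, or 9.49% of the exon bases of NR1D1. The strand setting of the counting is not given in the sources used here, so reads there cannot be assigned with certainty. THRA averaged 53.1 ± 6.63 CPM in MK5 siRNA libraries and 50.7 ± 2.29 CPM in control libraries, and its change on the log2 scale was 0.066 ± 0.12 (edgeR adjusted p = 0.681), with a sign that turned without MK5 siRNA replicate 1 (−0.030) and in replicates 2 and 3 (−0.045).

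NR1D2, the more abundant of the pair, had 98.4, 85.7 and 78.1 CPM in MK5 siRNA replicates, against 87.5, 69.9 and 64.8 CPM in control replicates 1, 2 and 3. The groups overlapped through control replicate 1. Its log2 fold change of 0.24 ± 0.15 did not pass (edgeR adjusted p = 0.232). It passed without control replicate 1 (0.38 ± 0.11, edgeR adjusted p = 0.0147) and in replicates 2 and 3 (0.29 ± 0.069, edgeR adjusted p = 0.00102). In both settings a larger share of all tested genes passed than with all libraries.

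DBP, an activator of D-box genes that cycles strongly in mouse tissues, had 5.98, 5.08 and 4.95 CPM in MK5 siRNA replicates, against 5.63, 6.56 and 5.56 CPM in control replicates. The libraries of the groups were interleaved. The log2 fold change was −0.15 ± 0.18 (edgeR adjusted p = 0.516), and the value in replicates 2 and 3, −0.27 ± 0.14, did not pass either (edgeR adjusted p = 0.0804). DBP shares 661 exon bases with SPHK2 on the opposite strand (10.1% of its exon bases), which averaged 16.4 CPM in MK5 siRNA libraries and 21.0 CPM in control libraries.

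**Figure D3:**
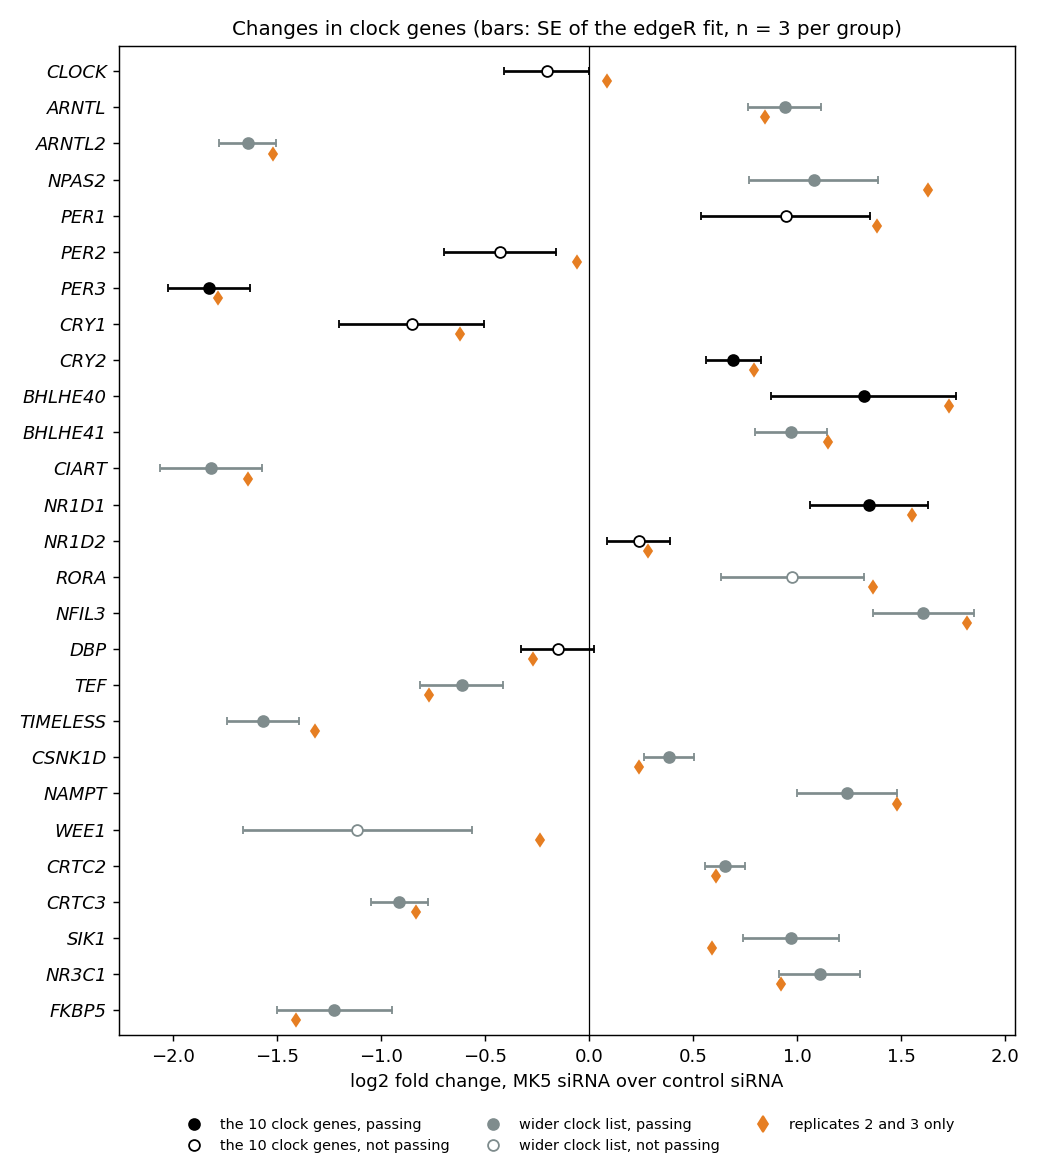
Log2 fold change, MK5 siRNA over control siRNA, of the 10 clock genes (black) and of 17 genes of the wider clock list (grey), with the SE of the edgeR fit. Filled circles have an adjusted p below 0.05, and diamonds give the value from replicates 2 and 3 alone. CLOCK changes sign in that set. Among the genes that move to the right, PER1, NPAS2, BHLHE40 and RORA have larger positive values, and PER2 and WEE1 have smaller negative ones.

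Paralogs were compared within a library. Ratios are of CPM + 0.5, a constant that weighs on low genes such as PER2 and PER3 (with CPM + 2, the difference for PER1 to PER3 was 2.30), and the difference is MK5 siRNA minus control siRNA. The log2 ratio of CRY1 to CRY2 was 0.95, 0.36 and 0.20 in MK5 siRNA libraries, against 2.54, 1.58 and 1.73 in control libraries. CRY1 counts thus exceeded CRY2 counts in every library, by less in each MK5 siRNA library than in any control. The difference of means was −1.45. PER1 to PER3 moved furthest, with 3.17, 2.42 and 2.76 in MK5 siRNA libraries, against 0.94, −0.50 and −0.26 in control libraries, a difference of 2.72. For PER1 to PER2 the difference was 1.39, for PER2 to PER3 1.33 and for NR1D1 to NR1D2 1.07. In all 5 ratios the groups did not overlap, and each had a two-sided exact permutation p of 0.1 (also 0.1 after Benjamini-Hochberg adjustment over 5 ratios), the smallest that 3 against 3 libraries allow. This exact test cannot reach 0.05 with 3 libraries per group. On the log2 scale, PER1 to PER3 is the sum of PER1 to PER2 and PER2 to PER3. The PER ratios are therefore not separate results. The share of ratios without overlap was not computed for other pairs of genes. Among single tested genes, 60.4% had groups that did not overlap.

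**Figure D4:**
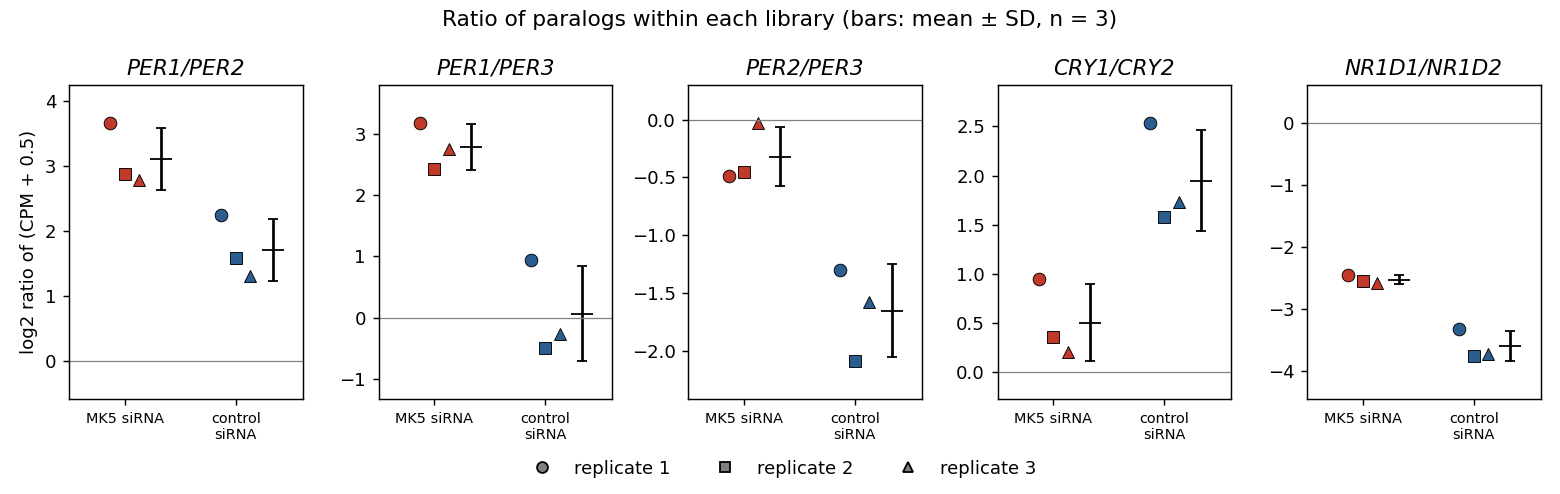
Log2 ratio of (CPM + 0.5) of 2 paralogs in each of the 6 libraries, MK5 siRNA left and control siRNA right, with the mean and SD of 3 libraries. No ratio has groups that overlap. CRY1/CRY2 is lower after MK5 siRNA and the other 4 are higher.

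Between genes, levels can be compared only per length. The length used here counts every base in any annotated exon of a gene, over all its transcripts. A gene whose transcripts use only part of those bases is placed too low, so the order depends on the annotation. As CPM per kilobase of exon (GENCODE release 29, matched by gene identifier), the order in MK5 siRNA libraries ran from BHLHE40 at 41.9 ± 12.2 and NR1D2 at 15.02 ± 1.76 through NR1D1 (5.37 ± 0.931), CRY1 (5.29 ± 1.43), CLOCK (5.20 ± 0.210), PER1 (3.51 ± 0.755) and CRY2 (2.96 ± 0.0591) to DBP (0.815 ± 0.0862), PER3 (0.384 ± 0.0595) and PER2 (0.347 ± 0.0535). In control libraries it ran from BHLHE40 at 16.8 ± 10.9, NR1D2 at 12.7 ± 2.04 and CRY1 at 9.55 ± 4.61 through CLOCK (5.99 ± 1.80), NR1D1 (2.11 ± 0.781), CRY2 (1.83 ± 0.180), PER1 (1.82 ± 1.11) and PER3 (1.36 ± 0.175) to DBP (0.904 ± 0.0854) and PER2 (0.468 ± 0.128). After MK5 siRNA the neighbours that overlapped were NR1D1 with CRY1, CRY1 with CLOCK, and PER3 with PER2. In control libraries, BHLHE40, NR1D2, CRY1 and CLOCK overlapped in turn, as did NR1D1, CRY2, PER1 and PER3. Among the PER genes, PER3 lay within the range of PER1 in control libraries and next to PER2 after MK5 siRNA.

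**Figure D5:**
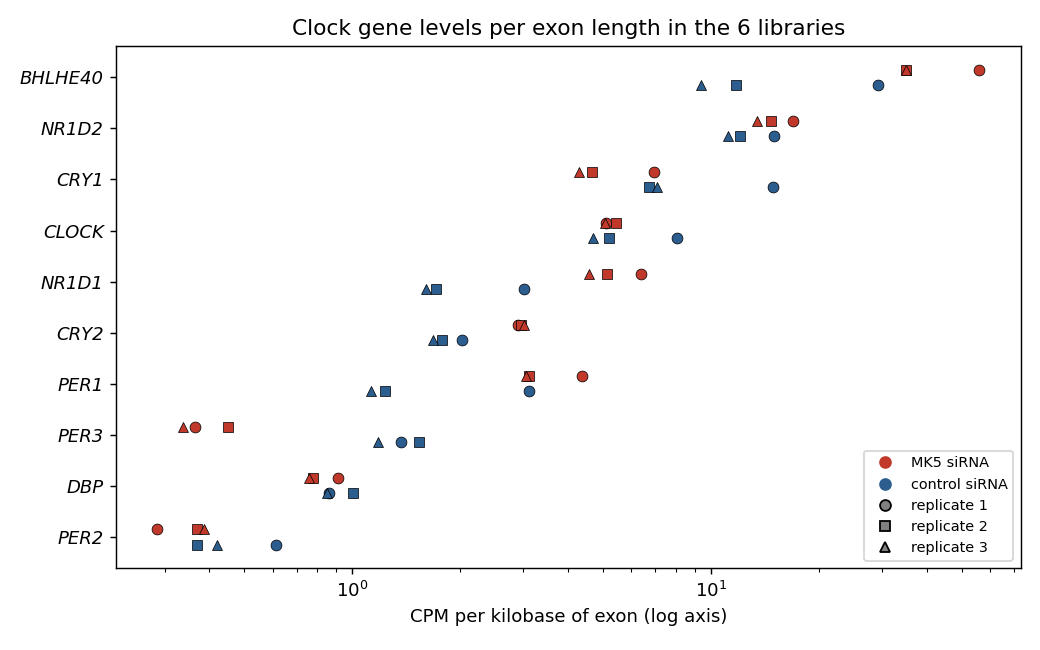
Level of each clock gene in the 6 libraries as CPM per kilobase of all annotated exons (log axis), MK5 siRNA above control siRNA in each row, with genes ordered by their control mean. NR1D1 stands beside CRY1 and CLOCK after MK5 siRNA and beside CRY2 and PER1 in control libraries.

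The other genes of the clock network were followed in a list of 35, all in the table, of which 31 were tested. The others were too low to test. Of the 31, 9 rose, 6 fell and 16 did not pass, beside the 46.2% of all tested genes that passed, and their median log2 fold change was 0.19. The groups did not overlap in 22 of the 31, against 60.4% of all tested genes.

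Among the genes of CLOCK's partners and of its paralog, ARNTL, which encodes BMAL1, averaged 15.8 ± 2.37 CPM in MK5 siRNA libraries and 8.25 ± 1.03 CPM in control libraries and rose by 0.94 ± 0.18 on the log2 scale (edgeR adjusted p = 0.00525). NPAS2, a paralog of CLOCK, rose by 1.08 ± 0.31 (edgeR adjusted p = 0.0267), although it did not pass with the replicate block (1.14, edgeR adjusted p = 0.0566) or without any one of MK5 siRNA replicates 2 and 3 or control replicates 2 and 3 (edgeR adjusted p from 0.0854 to 0.0911). Its pairs gave 0.16, 1.58 and 1.51. ARNTL2, a paralog of ARNTL, fell by 1.64 ± 0.14, with 23.5 ± 0.534 CPM in MK5 siRNA libraries and 73.3 ± 11.5 CPM in control libraries (edgeR adjusted p = 0.000333). ARNTL and NPAS2 thus rose and ARNTL2 fell, while CLOCK itself did not pass.

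Of the E-box repressors, BHLHE41, the paralog of BHLHE40 also known as DEC2, rose by 0.97 ± 0.17 (edgeR adjusted p = 0.00433), with 22.1 ± 1.32 CPM in MK5 siRNA libraries and 11.3 ± 2.19 CPM in control libraries. CIART, a repressor of CLOCK and BMAL1, fell by 1.82 ± 0.24 (edgeR adjusted p = 0.00153), with 2.16 ± 0.331 CPM in MK5 siRNA libraries and 7.63 ± 1.69 CPM in control libraries.

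In the linked loop, NFIL3, the repressor of D-box genes, rose by 1.61 ± 0.24 (edgeR adjusted p = 0.00230), with 43.9 ± 5.45 CPM in MK5 siRNA libraries and 14.4 ± 4.85 CPM in control libraries. TEF, an activator of D-box genes and a relative of DBP, fell by 0.61 ± 0.20 (edgeR adjusted p = 0.0409). That call did not hold in limma (−0.56, limma adjusted p = 0.0509) or with library totals only (−0.52, edgeR adjusted p = 0.0927), nor without any one library other than control replicate 1 (edgeR adjusted p from 0.103 to 0.125). RORA, the activator of ARNTL, had 0.98 ± 0.34 and did not pass (edgeR adjusted p = 0.0533). It passed with the replicate block (1.04, edgeR adjusted p = 0.0454) and without control replicate 1 (1.41, edgeR adjusted p = 0.00146). RORA also passed with upper-quartile scaling, library totals only, DESeq2, limma, and replicates 2 and 3 alone. It did not pass with RLE size factors (edgeR adjusted p = 0.0581) or without the low-count filter (edgeR adjusted p = 0.0732). Nor did it pass without any one library other than control replicate 1 (edgeR adjusted p from 0.112 to 0.167). Its counts were 61 to 66 per MK5 siRNA library and 20 to 45 per control library.

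Of 11 tested kinases, ubiquitin ligases and a deubiquitinase that set the stability of PER and CRY proteins, CSNK1D, casein kinase 1 delta, rose by 0.38 ± 0.12 (edgeR adjusted p = 0.0354) and the other 10 did not pass, where 46.2% of all tested genes passed. CSNK1D did not pass with the replicate block (0.38, edgeR adjusted p = 0.0702), without the low-count filter (0.38, edgeR adjusted p = 0.0600) or without any one library other than control replicate 1 (edgeR adjusted p from 0.0605 to 0.0951). TIMELESS, which acts at replication forks and shares its name with a clock gene of flies, fell by 1.56 ± 0.17 (edgeR adjusted p = 0.000789).

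Among genes that the clock is known to drive, NAMPT, which makes the NAD precursor, rose by 1.24 ± 0.24 (edgeR adjusted p = 0.00603). WEE1, the mitotic inhibitor kinase, had 43.9, 34.7 and 34.1 CPM in MK5 siRNA libraries, against 162, 43.2 and 38.1 CPM in control libraries, and did not pass (−1.11 ± 0.55, edgeR adjusted p = 0.137). Without control replicate 1 its value was −0.11, and in replicates 2 and 3 alone it was −0.24 (edgeR adjusted p = 0.0101).

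Of 9 input genes, 3 rose and 2 fell, where 22.5% of all tested genes rose and 23.7% fell. CRTC2 and CRTC3, coactivators of CREB, moved in opposite directions, with log2 fold changes of 0.65 ± 0.097 (edgeR adjusted p = 0.00214) and −0.91 ± 0.14 (edgeR adjusted p = 0.00223). SIK1, a CREB-induced kinase that restrains CRTC proteins, rose by 0.97 ± 0.23 (edgeR adjusted p = 0.0130). NR3C1, the glucocorticoid receptor gene, rose by 1.11 ± 0.20 (edgeR adjusted p = 0.00425). FKBP5, a target of that receptor, fell by 1.22 ± 0.27 (edgeR adjusted p = 0.0106), with 17.3 ± 1.64 CPM in MK5 siRNA libraries and 40.4 ± 14.2 CPM in control libraries. TSC22D3, also listed for glucocorticoid input, had the opposite sign and did not pass (0.37 ± 0.25, edgeR adjusted p = 0.255).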

How the data were processed

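RNA of 6 libraries, 3 per group, was sequenced with the TruSeq V2 kit per the labels' protocols. Build GRCh37 and the tools HTSeq 0.9.1, TopHat2 2.1.1, Trimmomatic 0.36 and FastQC are listed, without order or settings, in the submitters' processing notes. The deposited values are whole-number counts per gene, not CPM as the table is named, since they sum to 27188074 to 28236773 per library. Every sample column was used.

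Genes were filtered with filterByExpr (count 10, total 15), scaled by TMM and tested, MK5 siRNA against control siRNA, by the quasi-likelihood test of edgeR 4.0.16 (R 4.3.3) with no replicate block. P-values, two-sided, were adjusted over all 13431 genes after Benjamini and Hochberg, with a threshold of 0.05, and the SE is the log2 fold change divided by the square root of F. limma 3.58.1 and DESeq2 1.42.0 were alternatives. The code was tested on simulated data. Across genes, same-numbered libraries of both groups had deviations from their group means that correlated at 0.258 (replicate 1), 0.206 (replicate 2) and 0.248 (replicate 3), so the numbers were taken to pair them. Replicates 2 and 3 crossed gave 0.182 and 0.151, close to the matched values, and replicate 1 against the others gave −0.263 to −0.208, so the pairing mostly sets replicate 1 apart. This pairing is read from the data, and the labels name no shared day. The labels call the replicates biological without saying that they were separate cultures, so p-values measure the spread between these libraries, which may be technical.

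The genes, lists, alternatives and naming rule (all 10 clock genes, and genes of a fixed wider clock list) were chosen with earlier results of these data known. Exon lengths, overlaps (GENCODE 29) and promoters (RefSeq) are of GRCh38, matched by identifier or symbol. Exon lengths and overlaps are of the merged exons of all annotated transcripts of a gene. Motif searches covered the 250 bases before each start.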

Additional observations from a re-analysis of the deposited data

How the results depend on the processing

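PER3, CRY2 and NR1D1 kept their direction and call under every alternative run (RLE, upper-quartile or no composition scaling, no low-count filter, DESeq2, limma with a pseudocount of 0.5 or 2, the replicate block, each library left out, and replicates 2 and 3 alone). The 5 paralog ratios kept their sign. Over the 10 clock genes, 82 of 90 values from the alternatives that keep all libraries or replicates 2 and 3 had the direction and call of the main fit, as did 52 of 60 with one library left out.

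The fallen clock genes numbered 2 with DESeq2, with the replicate block and in replicates 2 and 3 alone, in place of 1. Of all 13431 tested genes, 3577 fell with DESeq2 and 3205 with the replicate block, against 3186 in the main fit. In replicates 2 and 3 alone, 5 clock genes rose, 15 genes of the wider list rose and 10 fell, and 5195 of all 13690 tested genes rose and 5177 fell. Leaving out one library in turn gave 2 to 5 clock genes that rose and 1 that fell, and 7 to 15 genes of the wider list that rose and 5 to 7 that fell. Of all genes, 2064 to 4455 rose and 2103 to 4419 fell, with 13642 to 13774 tested. The highest counts came without control replicate 1 and the lowest over all genes without MK5 siRNA replicate 2. CLOCK changed sign to 0.088 in replicates 2 and 3, and ranged from −0.38 to 0.075 with one library left out. THRA changed sign to −0.045 in replicates 2 and 3 and ranged from −0.030 to 0.15. The causes were not tested. Scaling by library totals only moved the median of all genes to 0.10, and with it 3544 genes rose and 2714 fell.

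Counting error is widest for PER2, DBP and PER3. With 3 libraries per group, 1 of which stands apart in each group, the SE of PER1 was 0.40 and that of CRY1 0.35 on the log2 scale.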
